A study of Bos taurus with 15 samples.

Results

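Bovine morulae were compared with bovine oocytes across a whole Affymetrix Bovine Genome array. The members are the 3 arrays labelled as embryos at the morula stage and the 3 labelled as oocytes, chosen by their titles, 6 of the 15 arrays of a series that runs from the oocyte to the blastocyst. Both groups are cattle (Bos taurus) with no genotype, breed, drug or dose named, and the labels call the arrays of a stage biological replicates. One culture text is shared by all samples: oocytes enclosed in dense cumulus were aspirated from ovarian follicles, matured in serum-containing medium with gonadotropins, inseminated with sperm and grown on as embryos. That text does not say at which point the oocytes were harvested, whether their cumulus had been removed, or how many oocytes or embryos went into 1 array. RNA was taken through 3 rounds of amplification before it was labelled with biotin.

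The oocyte lives on messenger RNA that it stored during growth, while its own chromosomes are silent. After fertilization that store is degraded, and the embryo's genome takes over, in cattle mainly around the 8-cell to 16-cell stages. The morula is the first stage after this handover at which the blastomeres flatten against each other, form junctions and begin to separate an outer epithelium from inner cells. What is read is how large a portion of the amplified RNA a transcript forms and not how many copies an embryo holds. Fewer cells of a type and less RNA per cell cannot be told apart.

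Marker genes were set beside the labels as a description, since gene lists here were chosen with earlier results of these data known. Of 8 oocyte markers 7 were measured and all 7 fell in morulae, and of 8 markers of the morula 6 rose. POU5F1, among those that rose, was also strong in oocytes, at 2540, 3210 and 5450. The calls for the oocyte markers ZP3 and BMP15 were lost in several alternative limma fits. In the fit of the 6 arrays alone the adjusted p was 0.0889 for ZP3 and 0.0963 for BMP15. The other morula markers were KRT8 and SOX2, and neither passed the test. SOX2, a transcription factor of pluripotent cells, read 416, 450 and 152 in morulae against 17.3, 392 and 164 in oocytes, so that oocyte 2 lay among the morulae. Of 25 measured defining markers of cumulus, granulosa, sperm, blood and stromal cells 0 rose and 1, FOXL2, fell in limma, with 1 higher and 3 lower at an unadjusted p under 0.05. These 25 are a selection, and longer marker lists of the same cells, described below, did hold changes. There 2 rose and 5 fell of 32 measured for cumulus and granulosa (6.25% and 15.6%). For sperm 1 rose and 0 fell of 15 (6.67% and 0%). For blood, immune and stromal cells 2 rose and 1 fell of 23 (8.7% and 4.35%). Over all genes 17.7% rose and 8.63% fell.

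The deposited table holds a mean signal of 712, 663 and 583 arbitrary units for morulae 1, 2 and 3, and of 586, 561 and 570 for oocytes 1, 2 and 3. The third array of each stage stood apart from the others: 2609 and 2347 of 24016 probe sets differed by 4-fold or more between morula 3 and morulae 1 and 2, against 47 between morulae 1 and 2. In oocytes the same count was 3065 and 2772 for oocyte 3, against 320 between oocytes 1 and 2. Bacterial Lys control transcripts gave signal on morula 3 and on oocytes 2 and 3 and stayed near background on morulae 1 and 2 and oocyte 1, which splits the 6 arrays into a class with and a class without this spike-in. On GAPDH, the signal of the middle probe set over that of the 3′ one was 0.625, 0.367 and 0.1 in morulae against 0.0977, 0.237 and 0.0374 in oocytes, and on cyclophilin it was 0.273, 0.322 and 0.178 against 0.0607, 0.102 and 0.0141. On eIF-4E it was 0.0636, 0.0842 and 0.887 against 0.0388, 0.0964 and 0.235, where the stages overlapped. The cyclophilin ratio was higher on every morula array than on any oocyte array, and its part in the results was not tested.

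Each probe set was tested with limma on log2(signal + 16), and adjusted p-values are Benjamini-Hochberg values over all 24016 probe sets. At an adjusted p under 0.05 there were 4550 probe sets (18.9%), of which 2830 (11.8%) were higher and 1720 (7.16%) lower in morulae. Scaling set that balance: quantile normalization gave 2432 higher and 2301 lower, median centring gave 2511 higher and 2269 lower, and the median change over all probe sets moved to -0.06 and -0.14 from 0.04. With 1 probe set for each gene, 9155 genes were measured, 1619 of them (17.7%) rose and 790 (8.63%) fell, and their median log2 change was 0.14. The 3 morula arrays did not overlap the 3 oocyte arrays for 3954 genes (43.2%). Among the called genes 394 rose and 150 fell by 16-fold or more, and 32 rose and 27 fell by 64-fold or more. Of the 2409 called genes 2395 did not overlap between the stages, which alone fixes their sign in any selection of these arrays.

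**Figure D1:**
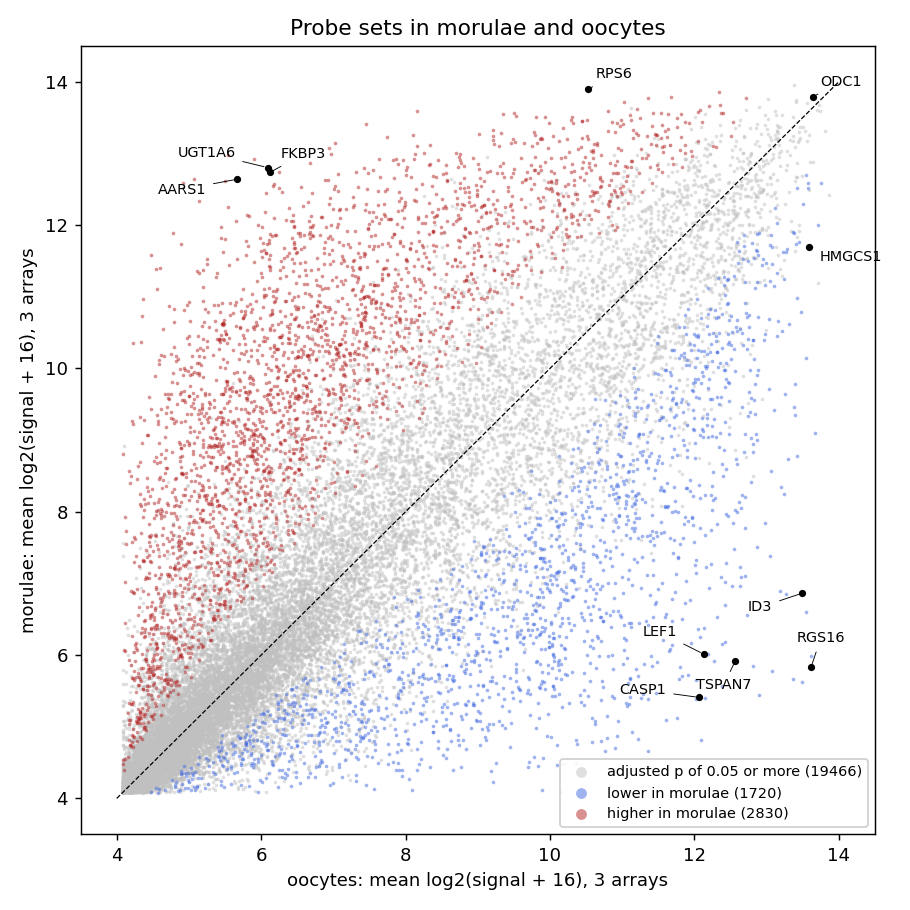
Each point is 1 of 24016 probe sets, with the mean log2(signal + 16) of the 3 morula arrays on the vertical axis and of the 3 oocyte arrays on the horizontal axis, and the dashed line marks equal signal. The 2830 probe sets that rose and the 1720 that fell spread far from that line, with UGT1A6 and FKBP3 near the top left and ID3 and TSPAN7 near the bottom right.

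**Figure D2:**
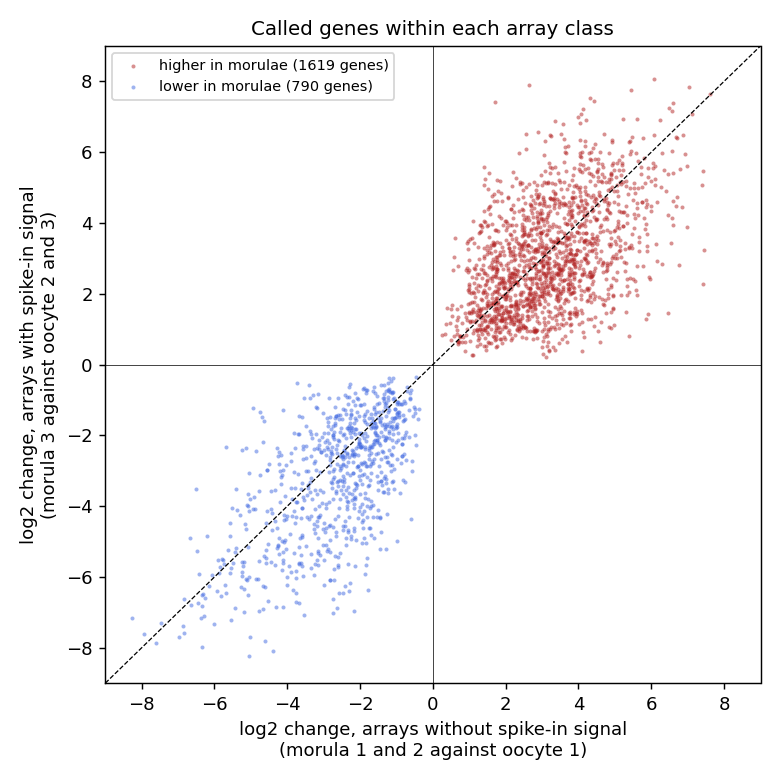
Each of the 2409 called genes is placed by its log2 change in the arrays without spike-in signal (horizontal) and in those with it (vertical), and the dashed line marks equal change. All points lie at the lower left or upper right, which the lack of overlap fixes for 2395 of them, and the distance from the dashed line shows how far the sizes of change differed between the classes.

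In total signal, the probe sets that rose made up 37.9%, 38.4% and 38.1% on the morula arrays against 6.2%, 5.8% and 7.9% on the oocyte arrays. Those that fell made up 3.9%, 3.8% and 3.6% on the morula arrays against 25.1%, 26.7% and 24.6% on the oocyte arrays. These sets were picked by the same values, so the shares describe how much of each array the exchange touched and test nothing.

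Transcripts with strong signal at both stages that did not pass the test included housekeeping functions. ODC1, ornithine decarboxylase, which makes the polyamine putrescine, read 15480, 15430 and 11923 in morulae against 13169, 16448 and 9651 in oocytes (log2 change 0.15, SE 0.24, adjusted p = 0.726). H3-3A, which encodes the replication-independent histone H3.3, read 13160, 13310 and 13816 in morulae against 9429, 12355 and 11042 in oocytes (log2 change 0.30, SE 0.22, adjusted p = 0.384). RBM17, a splicing factor, read 9278, 9851 and 9400 in morulae against 12123, 10030 and 11921 in oocytes (log2 change -0.25, SE 0.18, adjusted p = 0.38). ODC1 overlapped between the stages, and H3-3A and RBM17 were separated only by a narrow gap. A second probe set of each of these 3 genes, at -0.15, 0.38 and -0.57, did not pass either.

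The deepest falls were of transcripts of many kinds besides those of the egg coat. Some falls larger than those given next, such as PLEKHG1 (log2 change -7.7) and TECTB (-7.28), are not described by their signals here. Several encode regulators of transcription and of developmental signals. ID3, a protein that blocks basic helix-loop-helix transcription factors and is switched on by bone morphogenetic proteins, read 104, 148 and 64.3 in morulae against 11676, 11573 and 11292 in oocytes (log2 change -6.63, SE 0.50, adjusted p = 3.51e-05). Its signal was among the strong ones on every oocyte array and weak on every morula array. LEF1, a DNA-binding partner of beta-catenin in Wnt signalling, read 53.6, 53.3 and 40 in morulae against 4933, 5295 and 3403 in oocytes (log2 change -6.11, SE 0.33, adjusted p = 1.09e-05). Its relative TCF7 fell too: it read 116, 43.6 and 190 in morulae against 2922, 3234 and 4055 in oocytes (log2 change -4.85, SE 0.70, adjusted p = 0.00102), while another probe set of TCF7 changed by -0.79 without passing. DKK3, a secreted protein of the Dickkopf family, read 52.8, 63.4 and 24.7 in morulae against 6447, 3627 and 5175 in oocytes (log2 change -6.36, SE 0.51, adjusted p = 4.6e-05), and its second probe set, at -0.97, did not pass. RB1, the retinoblastoma protein that holds cells before S phase, read 8.46, 41 and 2.21 in morulae against 1592, 1551 and 2925 in oocytes (log2 change -6.05, SE 0.57, adjusted p = 0.000102). For all 4 of LEF1, TCF7, DKK3 and RB1 the lowest oocyte array was above the highest morula array.

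PLAGL1, an imprinted zinc-finger transcription factor, read 11.8, 14 and 3.37 in morulae against 1611, 2184 and 1440 in oocytes (log2 change -6.10, SE 0.37, adjusted p = 1.58e-05). EPAS1, the oxygen-regulated factor HIF-2 alpha, read 86.9, 44.8 and 24.3 in morulae against 2970, 2666 and 2407 in oocytes (log2 change -5.41, SE 0.49, adjusted p = 8.44e-05), with its second probe set at -4.48 past the test as well. PRDM1, a repressor known in mice for specifying germ cells, read 51, 24.3 and 19 in morulae against 1222, 1256 and 1823 in oocytes (log2 change -4.97, SE 0.66, adjusted p = 0.000645). Its other probe sets, at -1.06 and 0.11, did not pass. None of these 3 overlapped between the stages.

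Genes for proteins of the cell surface and outside the cell fell as far. TSPAN7, a tetraspanin that organizes membrane proteins, read 40.5, 59.5 and 36.4 in morulae against 6528, 5635 and 6040 in oocytes (log2 change -6.65, SE 0.32, adjusted p = 1.09e-05). CD200, a surface glycoprotein that restrains immune cells, read 21.3, 38.8 and 21.4 in morulae against 1626, 2450 and 3641 in oocytes (log2 change -5.86, SE 0.42, adjusted p = 2.73e-05). CLDN11, a claudin of tight junctions, read 15.2, 18.4 and 21.3 in morulae against 2640, 2240 and 5074 in oocytes (log2 change -6.51, SE 0.44, adjusted p = 2.5e-05), whereas a second CLDN11 probe set changed by 0.74 and did not pass. The claudins thus split, since CLDN6 (log2 change 6.01, adjusted p = 5.72e-05) rose in morulae while CLDN11 fell, although a second CLDN6 probe set, at 0.41, did not pass. GJC1, a connexin of gap junctions, read 32.8, 27.4 and 11.9 in morulae against 1536, 1949 and 3264 in oocytes (log2 change -5.79, SE 0.47, adjusted p = 5.29e-05). ADAMTS4, a protease of extracellular proteoglycans, read 108, 16 and 16.6 in morulae against 7110, 3281 and 3067 in oocytes (log2 change -6.37, SE 0.64, adjusted p = 0.000152). MMP23, a membrane-anchored metalloprotease, was listed at 1.00 on all 3 morula arrays against 880, 838 and 1896 in oocytes (log2 change -6.06, SE 0.38, adjusted p = 1.68e-05), and its other probe set rose by 1.66. P4HA3, a subunit of the enzyme that hydroxylates collagen, read 61.3, 91.4 and 16.9 in morulae against 4222, 4741 and 5098 in oocytes (log2 change -6.18, SE 0.51, adjusted p = 5.75e-05). These genes were all low on every morula array, with ADAMTS4 at its highest on morula 1.

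Lipid, vesicle and protease genes made up another portion of the falls. ELOVL4, an elongase of very long fatty acids, read 145, 98.4 and 76.2 in morulae against 10362, 8464 and 9209 in oocytes (log2 change -6.29, SE 0.35, adjusted p = 1.16e-05), and its second probe set fell by 3.60. Its relative ELOVL6, which acts on shorter chains, moved the other way: it read 2645, 2510 and 2727 in morulae against 31.3, 10 and 24.4 in oocytes (log2 change 6.17, SE 0.41, adjusted p = 2.18e-05). LDAF1, an assembly factor of lipid droplets, read 194, 72.9 and 3.29 in morulae against 4550, 6208 and 5403 in oocytes (log2 change -6.24, SE 0.74, adjusted p = 0.000337), and a second probe set, at -5.55, passed too. Its 3 morula arrays differed widely, but all stayed below the oocytes. SYTL2, a synaptotagmin-like partner of vesicle-bound RAB27, read 7.2, 20.5 and 10.8 in morulae against 2309, 3323 and 1731 in oocytes (log2 change -6.40, SE 0.42, adjusted p = 2.24e-05). CASP1, the caspase that matures interleukin-1 beta in inflammasomes, read 22.4, 31.5 and 26.1 in morulae against 3433, 3409 and 6644 in oocytes (log2 change -6.66, SE 0.38, adjusted p = 1.3e-05). PRSS2, a trypsinogen, read 12.1, 26 and 7.77 in morulae against 1242, 3041 and 2955 in oocytes (log2 change -6.21, SE 0.45, adjusted p = 2.73e-05). SLC39A12, a zinc transporter of the ZIP family, read 7.94, 12.2 and 41 in morulae against 2618, 1815 and 1555 in oocytes (log2 change -5.86, SE 0.46, adjusted p = 4.35e-05). The morula arrays were uniformly low for these 4 genes.

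The largest rises spanned gene expression, folding, metabolism and cell shape. Some rises larger than those given next, such as AGPAT4 (log2 change 7.67), ALDH5A1 (7.58) and GK (7.19), are not described by their signals here. FKBP3, a prolyl isomerase of the nucleus, read 6732, 6241 and 7482 in morulae against 69.9, 48.2 and 45.1 in oocytes (log2 change 6.61, SE 0.55, adjusted p = 5.63e-05). CCT6A, a subunit of the chaperonin that folds actin and tubulin, read 4356, 4065 and 1729 in morulae against 48.4, 24.3 and 17.8 in oocytes (log2 change 6.15, SE 0.48, adjusted p = 4.28e-05). NUDC, a co-chaperone of the dynein motor, read 7580, 5789 and 5161 in morulae against 38.1, 91.8 and 49.4 in oocytes (log2 change 6.40, SE 0.53, adjusted p = 5.61e-05). All 3 were low on every oocyte array. EWSR1, an RNA-binding protein of transcription and splicing, read 6582, 5998 and 4457 in morulae against 381, 54.8 and 1.24 in oocytes (log2 change 6.16, SE 0.90, adjusted p = 0.0011). SNHG12, a host transcript of small nucleolar RNAs, read 4366, 3990 and 4400 in morulae against 180, 16.7 and 3.79 in oocytes (log2 change 6.41, SE 0.74, adjusted p = 0.000306). EWSR1 and SNHG12 were even on the morula arrays and uneven on the oocyte arrays, where oocyte 1 was the highest. EXOSC6, a core subunit of the RNA exosome, read 1812, 1337 and 1330 in morulae against 12.4, 4.31 and 11.2 in oocytes (log2 change 5.90, SE 0.36, adjusted p = 1.67e-05), and its other probe set (0.34) did not pass. TSEN54, a subunit of the endonuclease that splices transfer RNA, read 523, 542 and 752 in morulae against 2.31, 2.59 and 2.59 in oocytes (log2 change 5.05, SE 0.29, adjusted p = 1.3e-05).

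UGT1A6, an enzyme that conjugates glucuronic acid to lipophilic compounds, read 7602, 7592 and 6278 in morulae against 49, 48.9 and 58.7 in oocytes (log2 change 6.71, SE 0.35, adjusted p = 1.09e-05). UGT1 family transcripts share their last exons, so the probe set may not tell them apart. SORD, sorbitol dehydrogenase, which turns sorbitol into fructose, read 3278, 4129 and 1303 in morulae against 25.9, 16.9 and 14.1 in oocytes (log2 change 6.24, SE 0.50, adjusted p = 4.54e-05). AMT, the aminomethyltransferase of the glycine cleavage system, read 1250, 1564 and 1747 in morulae against 30.5, 21.1 and 18 in oocytes (log2 change 5.29, SE 0.33, adjusted p = 1.68e-05). TMEM11, a protein of the inner mitochondrial membrane, read 3209, 3758 and 3798 in morulae against 76.6, 39 and 1.93 in oocytes (log2 change 6.32, SE 0.63, adjusted p = 0.000136), while its second probe set, at 0.25, did not pass. The oocyte arrays were all below the morula arrays for these 4 genes.

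COTL1, a coactosin-like protein that binds filamentous actin, read 7438, 7593 and 7368 in morulae against 418, 68.8 and 12.8 in oocytes (log2 change 6.20, SE 0.88, adjusted p = 0.000945). Its 3 oocyte arrays spread over more than 16-fold, and oocyte 3 was the lowest. DRAM1, a lysosomal membrane protein that p53 induces, read 2393, 1903 and 1728 in morulae against 5.06, 3.43 and 5.39 in oocytes (log2 change 6.60, SE 0.58, adjusted p = 7.1e-05). NFE2, a transcription factor known from red-cell precursors, read 4272, 3952 and 1500 in morulae against 26.6, 23.1 and 17 in oocytes (log2 change 6.28, SE 0.46, adjusted p = 3.01e-05). URGCP, named for raising cell proliferation, read 4557, 4055 and 1044 in morulae against 9, 10.3 and 5.89 in oocytes (log2 change 6.80, SE 0.57, adjusted p = 5.99e-05), and its second probe set, at 0.21, did not pass. Morula 3 had the lowest signal of the morulae for NFE2 and URGCP.

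**Figure D3:**
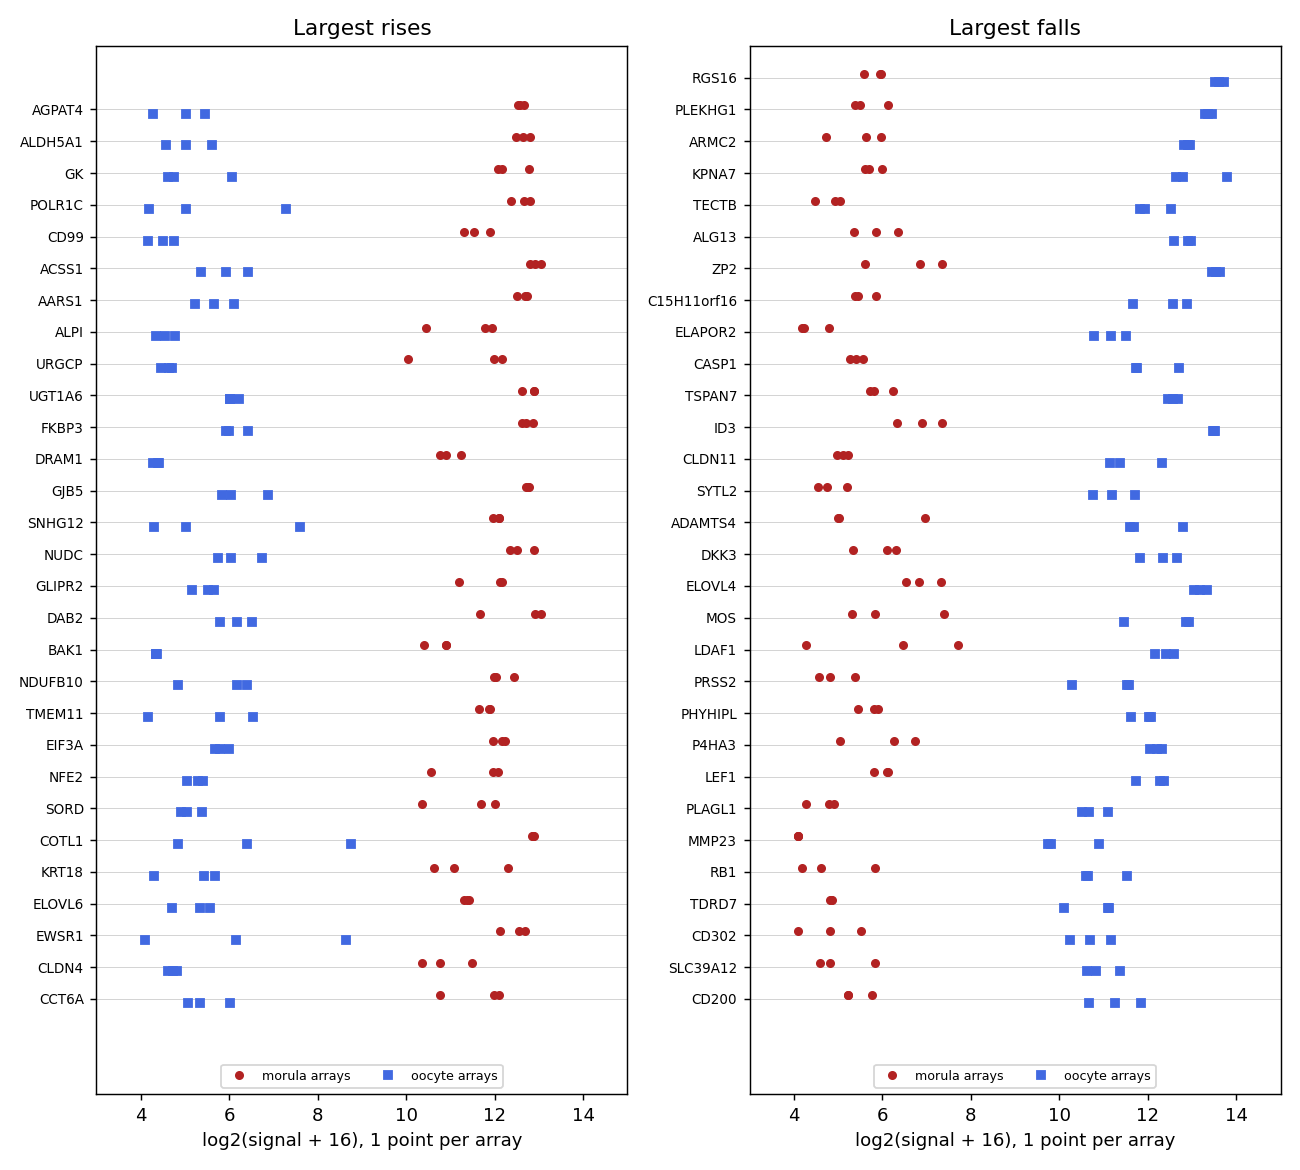
Points give log2(signal + 16) of each morula array (circles) and each oocyte array (squares) for the 30 largest rises (left) and 30 largest falls (right), 1 gene to a line, chosen for not overlapping, with 1 rise left out. The falls keep tight oocyte points and low morula points, whereas several rises, among them COTL1, EWSR1 and SNHG12, have widely spread oocyte points.

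Across function lists rises and falls were unevenly placed, and each list's share is read beside 17.7% higher and 8.63% lower over all genes. The lists were chosen with earlier results of these data known, and their counts and medians are descriptions. Beside each median log2 change stand the medians of the arrays without spike-in signal (morulae 1 and 2 against oocyte 1) and with it (morula 3 against oocytes 2 and 3). The fit of the arrays without spike-in also holds the 1-cell and blastocyst arrays of that class, whose spread stands in for that of the single oocyte. Where leaving out 1 array, each in turn, the replicate number as a block, quantile normalization or median centring moved a count by more than 1.5 times, the new count closes the paragraph. Those closing counts lack the share over all genes in the same fit, which moved too. Over all probe sets 1720 fell in the main fit, 2301 after quantile normalization and 2269 after median centring. Without 1 array 2081 to 3129 rose and 1179 to 2123 fell, and with the block 3004 rose and 1875 fell. Every called gene whose signals are printed had all 3 morula arrays on one side of all 3 oocyte arrays.

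Genes that serve the egg and the germ line fell more often than they rose. Among the egg surface and fertilization genes, 14 were measured, and of these 2 rose and 5 fell (14.3% and 35.7%). The median log2 change was -0.34, or -0.19 without and -0.86 with spike-in. The 8 measured germline and piRNA genes held 1 that rose and 4 that fell (12.5% and 50%), and the median log2 change was -1.72 (-1.78 without and -2.44 with spike-in). ZP4, a protein of the egg coat, read 166, 259 and 106 in morulae against 6197, 8070 and 8210 in oocytes (log2 change -5.35, SE 0.36, adjusted p = 2.54e-05). TDRD7, a Tudor protein of germ granules, read 12.3, 12.9 and 12.7 in morulae against 1086, 2229 and 2196 in oocytes (log2 change -5.94, SE 0.59, adjusted p = 0.000142), and its other probe set changed by -0.03. TDRD6, of the same family, read 8.07, 7.07 and 13.8 in morulae against 236, 180 and 279 in oocytes (log2 change -3.26, SE 0.63, adjusted p = 0.0052). The 2 egg-surface genes that rose were ITPR1 and CD9. For ZP4, TDRD7 and TDRD6 the replicates of a stage stayed within 4-fold. ITPR1, the calcium channel that releases the fertilization calcium waves, read 982, 986 and 2175 in morulae against 76.3, 109 and 293 in oocytes (log2 change 3.09, SE 0.56, adjusted p = 0.00373), and of its 4 other probe sets those at 7.43 and 3.67 passed while those at 0.56 and 0.25 did not. CD9, a tetraspanin needed for sperm fusion in mice, read 8807, 4860 and 2967 in morulae against 999, 855 and 220 in oocytes (log2 change 3.09, SE 0.73, adjusted p = 0.015). The call for CD9 was lost in the fit without morula 1 (adjusted p = 0.0613). Of 4 measured subcortical maternal complex and NLRP genes, 0 rose, 3 fell and 1 did not pass (0% and 75%), with 0 higher at an unadjusted p under 0.05 in limma. At the median, log2 change was -3.04, with -2.96 on arrays without and -2.23 on arrays with spike-in. NLRP5, a scaffold of that complex, read 248, 326 and 223 in morulae against 1549, 1166 and 6445 in oocytes (log2 change -3.04, SE 0.57, adjusted p = 0.00435). Rises for egg surface numbered 1 without morula 1. Rises for germline numbered 0 without oocyte 2. Rises for germline numbered 0 after median centring. Rises for germline numbered 2 with replicate number as a block.

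Translational control in the oocyte depends on proteins that lengthen, shorten or shield poly(A) tails. Among the genes of oocyte translational control, 18 were measured, and of these 3 rose and 4 fell (16.7% and 22.2%), with a median log2 change of -0.21 (-0.47 without and -0.27 with spike-in). Within the IGF2BP family of RNA-binding proteins the members moved apart: IGF2BP1 read 4387, 4577 and 3880 in morulae against 107, 61.7 and 39.9 in oocytes (log2 change 5.72, SE 0.42, adjusted p = 3.12e-05). IGF2BP3 read 966, 1088 and 939 in morulae against 5337, 9461 and 6702 in oocytes (log2 change -2.79, SE 0.35, adjusted p = 0.000512), and its second probe set fell by 2.97. CAPRIN1, a protein of stress granules that controls translation, read 4711, 3522 and 1798 in morulae against 162, 65.7 and 4.59 in oocytes (log2 change 5.54, SE 0.80, adjusted p = 0.00104). PAPOLG, a nuclear poly(A) polymerase, read 1140, 1679 and 505 in morulae against 5137, 12093 and 6832 in oocytes (log2 change -2.90, SE 0.50, adjusted p = 0.00276). ZFP36L2, which binds AU-rich elements and promotes decay of its targets, read 417, 193 and 219 in morulae against 31.5, 19.1 and 19.4 in oocytes (log2 change 2.83, SE 0.39, adjusted p = 0.000835), whereas a second probe set, at 0.01, did not pass. Morula arrays lay within 4-fold of each other for all of these genes, while oocyte arrays spread by more for CAPRIN1 (oocyte 3 lowest).

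Meiosis and cell division genes showed few rises. The 14 measured meiosis genes held 0 that rose and 4 that fell (0% and 28.6%), with 0 higher at an unadjusted p under 0.05 in limma. A median log2 change of -0.70 was found, 0.00 without and -0.82 with spike-in. MSH5, which stabilizes meiotic crossover intermediates, read 22.8, 24.3 and 33.1 in morulae against 164, 469 and 338 in oocytes (log2 change -2.88, SE 0.38, adjusted p = 0.000666). Of 35 measured genes of the mitotic spindle and kinetochore, 2 rose, 5 fell and 28 did not pass (5.71% and 14.3%), at a median log2 change of 0.05 (-0.03 without and -0.05 with spike-in, and -0.15 after quantile normalization). MIS12 and SPC24, both parts of the kinetochore, were the 2 that rose. MIS12 read 838, 1102 and 1618 in morulae against 32.5, 29.8 and 3.5 in oocytes (log2 change 5.05, SE 0.91, adjusted p = 0.00353). SPC24 read 1640, 2150 and 3058 in morulae against 150, 122 and 56.1 in oocytes (log2 change 4.24, SE 0.66, adjusted p = 0.00165). Mitosis genes with smaller falls past the test were CDCA8 (log2 change -1.46), ESPL1 (-1.45), TPX2 (-1.43), AURKA (-1.29) and KIF23 (-1.20). Each of these calls was lost in 1 or more alternative fits. A second AURKA probe set, at -3.48, passed, while those of CDCA8, ESPL1 and TPX2, at -1.57, -0.87 and -0.38, did not. Among the tubulin, centrosome and dynein genes, 35 were measured, and of these 5 rose and 4 fell (14.3% and 11.4%). The median log2 change was -0.10, or 0.26 without and -0.36 with spike-in. Beta tubulins moved apart, since TUBB read 3333, 2536 and 1256 in morulae against 66.4, 148 and 97.5 in oocytes (log2 change 4.26, SE 0.46, adjusted p = 0.000217). TUBB2B read 831, 489 and 110 in morulae against 3982, 3290 and 8982 in oocytes (log2 change -3.70, SE 0.71, adjusted p = 0.0051), and its second probe set, at -0.14, did not pass. A spread of more than 4-fold was seen among morulae for TUBB2B (morula 3 lowest) and among oocytes for MIS12 (oocyte 3 lowest). Rises for meiosis numbered 1 without oocyte 3. Falls for meiosis numbered 2 without morula 1, 2 or 3 or oocyte 2. Falls for the spindle and kinetochore numbered 1 to 3 without morula 1, 2 or 3 or oocyte 1 or 2. Rises for tubulin, centrosome and dynein numbered 3 without morula 1 or 2. Falls for tubulin, centrosome and dynein numbered 7 after median centring.

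The 43 measured DNA replication genes held 7 that rose and 2 that fell (16.3% and 4.65%), and the median log2 change was 0.13 (0.32 without and -0.21 with spike-in, and -0.08 after quantile normalization). POLD2, a subunit of DNA polymerase delta, read 501, 669 and 252 in morulae against 42.5, 41.4 and 9.73 in oocytes (log2 change 3.37, SE 0.61, adjusted p = 0.0036). DBF4, the activator of the replication kinase CDC7, read 523, 690 and 1249 in morulae against 79.2, 119 and 45.2 in oocytes (log2 change 3.09, SE 0.51, adjusted p = 0.00233). ORC5, a subunit of the origin recognition complex, read 369, 379 and 59.4 in morulae against 4753, 6098 and 2227 in oocytes (log2 change -4.16, SE 0.79, adjusted p = 0.00476), while 2 other probe sets, at -0.35 and -0.40, did not pass. Morula arrays spread over more than 4-fold for ORC5 (morula 3 lowest), and oocyte arrays for POLD2 (oocyte 3 lowest). Of 40 measured DNA repair genes, 3 rose, 3 fell and 34 did not pass (7.5% and 7.5%). At the median, log2 change was -0.29, with -0.14 on arrays without and -0.51 on arrays with spike-in. XRCC6, the Ku70 subunit of end joining, read 82.9, 64.5 and 67.5 in morulae against 2.2, 1 and 1 in oocytes (log2 change 2.33, SE 0.35, adjusted p = 0.00141). MRE11, the nuclease that trims broken ends, read 248, 352 and 535 in morulae against 2084, 1626 and 2895 in oocytes (log2 change -2.52, SE 0.40, adjusted p = 0.00177). Replicates of both stages lay within 4-fold for XRCC6 and MRE11. The shares of both lists past the test in either direction were below those of all genes. Rises for DNA replication numbered 3 to 4 without morula 1 or 2 or oocyte 1. Falls for DNA replication numbered 1 without morula 2 or 3 or oocyte 2 or 3. Falls for DNA replication numbered 4 after quantile normalization. Falls for DNA replication numbered 4 with replicate number as a block. Falls for DNA repair numbered 6 without oocyte 3. Falls for DNA repair numbered 5 after quantile normalization.

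The shares of histone and chromatin genes that rose were near that of all genes. Among the histones and histone chaperones, 30 were measured, and of these 7 rose and 1 fell (23.3% and 3.33%), with a median log2 change of 0.52 (0.57 without and 0.20 with spike-in). Both H2A.Z genes rose: H2AZ1 read 8013, 5579 and 2815 in morulae against 408, 140 and 120 in oocytes (log2 change 4.60, SE 0.61, adjusted p = 0.000624). H2AZ2 read 5712, 4289 and 2609 in morulae against 118, 196 and 66.3 in oocytes (log2 change 4.92, SE 0.50, adjusted p = 0.000155), although its second probe set, at -0.65, did not pass. CHAF1B, a subunit of the factor that loads histones behind the replication fork, read 651, 1239 and 3903 in morulae against 59.9, 50.9 and 18.1 in oocytes (log2 change 4.74, SE 0.67, adjusted p = 0.000952). Oocyte arrays lay within 4-fold of each other for all of these genes, while morula arrays spread by more for CHAF1B (morula 3 highest). The 50 measured histone modifiers and remodellers held 10 that rose and 2 that fell (20% and 4%). A median log2 change of 0.39 was found, 0.54 without and 0.16 with spike-in. HDAC6, a deacetylase that also acts on tubulin, read 910, 1080 and 1495 in morulae against 13.3, 14.8 and 8.93 in oocytes (log2 change 5.35, SE 0.49, adjusted p = 8.78e-05). SMARCA1, an ISWI-type remodeller, read 31.2, 35.7 and 28 in morulae against 2228, 472 and 1054 in oocytes (log2 change -4.47, SE 0.79, adjusted p = 0.00315). Of 51 measured genes of Mediator and RNA polymerase II elongation, 8 rose, 6 fell and 37 did not pass (15.7% and 11.8%), at a median log2 change of 0.06 (0.04 without and 0.10 with spike-in, and -0.19 after quantile normalization). Subunits of Mediator, which links transcription factors to the polymerase, moved both ways. MED22 read 615, 438 and 1654 in morulae against 10.4, 10.4 and 44 in oocytes (log2 change 4.49, SE 0.86, adjusted p = 0.00508). MED14 read 88.7, 83.5 and 121 in morulae against 945, 1034 and 769 in oocytes (log2 change -3.04, SE 0.36, adjusted p = 0.000368). Oocyte replicates spread over more than 4-fold for SMARCA1 (oocyte 2 lowest) and MED22 (oocyte 3 highest), and morula replicates for none of these genes. Falls for histones and their chaperones numbered 2 without morula 3. Falls for histones and their chaperones numbered 4 after quantile normalization and 3 after median centring. Falls for histones and their chaperones numbered 2 with replicate number as a block. Falls for modifiers and remodellers numbered 4 after quantile normalization or median centring. Rises for Mediator and elongation numbered 5 without morula 2 or oocyte 2. Falls for Mediator and elongation numbered 3 without morula 2 or 3 or oocyte 2.

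Nuclear transport changed in single members. Among the nuclear pore and transport genes, 54 were measured, and of these 7 rose and 3 fell (13% and 5.56%). The median log2 change was 0.32, or 0.61 without and 0.03 with spike-in. RANGAP1, which activates the GTPase of the transport protein Ran, read 2708, 2385 and 3159 in morulae against 162, 74.5 and 175 in oocytes (log2 change 4.24, SE 0.58, adjusted p = 0.000774). KPNA7, the egg's importin alpha, was 32.9, 48 and 36.1 in morulae against 6329, 14177 and 7143 in oocytes (log2 change -7.30, SE 0.39, adjusted p = 1.09e-05). Its widely used relative KPNA2 read 5549, 3326 and 3465 in morulae against 3111, 2710 and 3964 in oocytes (log2 change 0.31, SE 0.33, adjusted p = 0.577). The egg form was low on every morula array, while the signals of KPNA2 at the 2 stages overlapped. Rises for nuclear pores and transport numbered 2 to 4 without morula 1 or 2 or oocyte 1 or 2. Falls for nuclear pores and transport numbered 5 without oocyte 3. Falls for nuclear pores and transport numbered 8 after quantile normalization and 6 after median centring. Falls for nuclear pores and transport numbered 5 with replicate number as a block.

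Lists of genes that charge transfer RNA and fold new proteins held more rises than all genes did. The 32 measured aminoacyl-tRNA synthetases held 12 that rose and 1 that fell (37.5% and 3.12%), and the median log2 change was 1.84 (2.25 without and 1.29 with spike-in). SARS1, which charges the serine transfer RNA, read 861, 834 and 637 in morulae against 22.1, 23.6 and 55.2 in oocytes (log2 change 4.05, SE 0.41, adjusted p = 0.000156). YARS1, which charges the tyrosine one, read 1189, 1685 and 1272 in morulae against 87.5, 85.7 and 28.6 in oocytes (log2 change 4.15, SE 0.46, adjusted p = 0.000237). RARS2, the mitochondrial arginine enzyme, was the one that fell (log2 change -2.37, adjusted p = 0.0123). Its call was lost in the fit of the arrays without spike-in (adjusted p = 0.211) and the fit without oocyte 2 (adjusted p = 0.0518). Of 40 measured chaperonin and cytosolic folding genes, 16 rose, 1 fell and 23 did not pass (40% and 2.5%). At the median, log2 change was 1.06, with 0.99 on arrays without and 0.81 on arrays with spike-in. CCT4, another chaperonin subunit, read 12551, 11629 and 10810 in morulae against 900, 526 and 1426 in oocytes (log2 change 3.70, SE 0.53, adjusted p = 0.000969). HSPA4, which recharges HSP70 with nucleotide, read 6285, 6808 and 7013 in morulae against 505, 301 and 282 in oocytes (log2 change 4.20, SE 0.32, adjusted p = 3.56e-05), and its second probe set, at -0.46, did not pass. Replicates of both stages lay within 4-fold for SARS1, YARS1, CCT4 and HSPA4. Falls for aminoacyl-tRNA synthetases numbered 0 without oocyte 2. Falls for cytosolic folding numbered 2 without oocyte 3. Falls for cytosolic folding numbered 2 after median centring. Falls for cytosolic folding numbered 2 with replicate number as a block.

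Of 2 lists of the secretory route, that of the endoplasmic reticulum held rises at a share above that of all genes. The share of vesicle coat and Golgi genes that rose was near that of all genes. Among the genes of translocation, folding and glycosylation in the endoplasmic reticulum, 58 were measured, and of these 15 rose and 6 fell (25.9% and 10.3%), with a median log2 change of 0.81 (0.62 without and 0.32 with spike-in). RPN2, a subunit of the oligosaccharyltransferase that adds N-glycans, read 4521, 3698 and 2628 in morulae against 285, 334 and 709 in oocytes (log2 change 3.06, SE 0.44, adjusted p = 0.000969). TUSC3, an accessory subunit of the same enzyme, read 13.3, 32.2 and 52.4 in morulae against 123, 98.9 and 172 in oocytes (log2 change -1.65, SE 0.36, adjusted p = 0.00994). ALG13, which helps build the glycan precursor, had one of the largest falls (log2 change -6.97, adjusted p = 1.09e-05). The 64 measured vesicle coat and Golgi genes held 13 that rose and 3 that fell (20.3% and 4.69%). A median log2 change of 0.68 was found, 0.89 without and 0.42 with spike-in. ARFGAP3, which switches off the coat GTPase ARF1 at the Golgi, read 3806, 3706 and 4056 in morulae against 227, 185 and 63.3 in oocytes (log2 change 4.62, SE 0.48, adjusted p = 0.000167), and its second probe set rose by 2.92. AP2S1, the small subunit of the clathrin adaptor AP-2, read 1694, 2094 and 507 in morulae against 25.8, 77.3 and 87.2 in oocytes (log2 change 4.06, SE 0.71, adjusted p = 0.00309). The spread exceeded 4-fold only among morulae, for AP2S1 (morula 3 lowest). Rises for the endoplasmic reticulum numbered 7 to 9 without morula 1 or 2. Falls for the endoplasmic reticulum numbered 3 without oocyte 1. Falls for vesicle coats and the Golgi numbered 0 to 1 without morula 2 or oocyte 1 or 2. Falls for vesicle coats and the Golgi numbered 6 after quantile normalization or median centring. Falls for vesicle coats and the Golgi numbered 5 with replicate number as a block.

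Of 48 measured lysosome and proton pump genes, 15 rose, 4 fell and 29 did not pass (31.2% and 8.33%), at a median log2 change of 1.03 (1.06 without and 0.56 with spike-in). ATP6V1E1, a stalk subunit of the vacuolar proton pump, read 7886, 7029 and 6165 in morulae against 309, 195 and 80.1 in oocytes (log2 change 5.22, SE 0.52, adjusted p = 0.000136). ATP6V1D, of the pump's central shaft, read 4633, 4555 and 3643 in morulae against 209, 193 and 119 in oocytes (log2 change 4.53, SE 0.34, adjusted p = 3.53e-05). CTSV, a cysteine protease of lysosomes, read 12020, 11637 and 9198 in morulae against 258, 328 and 41.1 in oocytes (log2 change 5.96, SE 0.61, adjusted p = 0.000157). Morula arrays lay within 4-fold of each other for all of these genes, while oocyte arrays spread by more for CTSV (oocyte 3 lowest). The falls were of other kinds: ASAH1, acid ceramidase, read 230, 125 and 140 in morulae against 1976, 1214 and 2441 in oocytes (log2 change -3.38, SE 0.46, adjusted p = 0.000713). LIPA, the lysosomal lipase of cholesteryl esters, read 171, 158 and 39.4 in morulae against 917, 1101 and 755 in oocytes (log2 change -2.93, SE 0.50, adjusted p = 0.00276). Among the autophagy genes, 39 were measured, and of these 8 rose and 1 fell (20.5% and 2.56%). The median log2 change was 0.50, or 0.59 without and 0.43 with spike-in. VPS11, of the complexes that tether vesicles to lysosomes, read 1304, 1484 and 1705 in morulae against 71.7, 95.5 and 11.8 in oocytes (log2 change 4.54, SE 0.57, adjusted p = 0.000479). A spread of more than 4-fold was seen among morulae for LIPA (morula 3 lowest) and among oocytes for VPS11 (oocyte 3 lowest). Falls for the lysosome numbered 2 without morula 1 or 3 or oocyte 2 or 3. Rises for autophagy numbered 5 without morula 1 or 2. Falls for autophagy numbered 0 to 2 without morula 2 or 3 or oocyte 1, 2 or 3.

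The 80 measured genes of ubiquitin conjugation and removal held 17 that rose and 7 that fell (21.2% and 8.75%), and the median log2 change was 0.36 (0.39 without and 0.19 with spike-in). CUL2, the cullin of the ligase that degrades hypoxia-inducible factors, read 568, 554 and 1606 in morulae against 6.53, 17.7 and 18 in oocytes (log2 change 4.78, SE 0.51, adjusted p = 0.00019). COPS6, a subunit of the signalosome that trims NEDD8 from cullins, read 823, 672 and 171 in morulae against 34.3, 89.1 and 20 in oocytes (log2 change 3.05, SE 0.63, adjusted p = 0.00737). RNF2, the ligase that places ubiquitin on histone H2A, read 108, 191 and 15.2 in morulae against 1619, 1174 and 2359 in oocytes (log2 change -4.17, SE 0.75, adjusted p = 0.00351). RNF187, another RING ligase named for its small adjusted p and not in that list, read 5594, 4675 and 4140 in morulae against 126, 122 and 91.9 in oocytes (log2 change 5.22, SE 0.34, adjusted p = 2.14e-05). Morula arrays spread over more than 4-fold for COPS6 (morula 3 lowest) and RNF2 (morula 3 lowest), and oocyte arrays for COPS6 (oocyte 2 highest). Rises for ubiquitin numbered 7 to 11 without morula 1 or 2 or oocyte 2. Rises for ubiquitin numbered 11 after quantile normalization. Falls for ubiquitin numbered 4 without oocyte 2. Falls for ubiquitin numbered 11 after median centring.

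Mitochondrial lists outside the respiratory chain held many rises and few falls. Of 66 measured mitochondrial ribosome genes, 27 rose, 0 fell and 39 did not pass (40.9% and 0%), with 0 lower at an unadjusted p under 0.05 in limma. At the median, log2 change was 1.83, with 2.48 on arrays without and 1.14 on arrays with spike-in. MRPL48 read 4482, 4161 and 3438 in morulae against 73.9, 105 and 8.72 in oocytes (log2 change 5.96, SE 0.69, adjusted p = 0.000314). MRPL55 read 6421, 5544 and 6004 in morulae against 234, 111 and 53.5 in oocytes (log2 change 5.53, SE 0.53, adjusted p = 0.000117). Both are proteins of the large mitochondrial ribosomal subunit, and all 3 oocyte arrays were below all 3 morula arrays. Among the genes of mitochondrial import and dynamics, 49 were measured, and of these 21 rose and 2 fell (42.9% and 4.08%), with a median log2 change of 1.29 (1.53 without and 1.06 with spike-in). TIMM22, the channel that inserts carrier proteins into the inner membrane, read 3844, 3973 and 1656 in morulae against 68.6, 109 and 44.9 in oocytes (log2 change 5.10, SE 0.66, adjusted p = 0.000544), and a second probe set rose by 3.49. TIMM9, a small chaperone that feeds that channel, read 961, 1396 and 1553 in morulae against 106, 28.9 and 9.23 in oocytes (log2 change 4.65, SE 0.60, adjusted p = 0.00053). PMPCA, a subunit of the peptidase that removes import signals, read 2549, 2450 and 2440 in morulae against 70.8, 43.5 and 87.3 in oocytes (log2 change 4.94, SE 0.61, adjusted p = 0.000456). Oocyte replicates spread over more than 4-fold for TIMM9 (oocyte 1 highest), and morula replicates for none of these genes. MFF, a receptor of mitochondrial fission, fell (log2 change -3.59, adjusted p = 0.0285) with its second probe set, at -1.22, not past the test. The MFF call was lost in the fit of the 6 arrays alone (adjusted p = 0.0802), the fit without oocyte 1 (adjusted p = 0.0744) and the fit without oocyte 2 (adjusted p = 0.0937). Falls for mitochondrial import and dynamics numbered 0 to 1 without morula 1, 2 or 3 or oocyte 1, 2 or 3. Falls for mitochondrial import and dynamics numbered 4 after quantile normalization.

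The 29 measured genes of the citrate cycle and pyruvate oxidation held 10 that rose and 2 that fell (34.5% and 6.9%). A median log2 change of 0.63 was found, 0.72 without and 0.66 with spike-in. MDH2, mitochondrial malate dehydrogenase, read 12599, 11973 and 11556 in morulae against 850, 686 and 435 in oocytes (log2 change 4.21, SE 0.30, adjusted p = 2.73e-05), while a second probe set, at 0.60, did not pass. IDH2, which makes NADPH in mitochondria, read 2690, 2933 and 683 in morulae against 178, 49.3 and 104 in oocytes (log2 change 3.95, SE 0.67, adjusted p = 0.00267). The falls were of malic enzymes, which make pyruvate from malate: ME1, in the cytosol, read 20.3, 8.63 and 6.11 in morulae against 1715, 2477 and 530 in oocytes (log2 change -5.62, SE 0.57, adjusted p = 0.000157), and its second probe set fell by 1.54. ME2, in mitochondria, read 193, 96.4 and 56.7 in morulae against 1080, 988 and 2758 in oocytes (log2 change -3.60, SE 0.71, adjusted p = 0.00597). Morula arrays spread over more than 4-fold for IDH2 (morula 3 lowest), and oocyte arrays for ME1 (oocyte 3 lowest). Malate dehydrogenase and malic enzymes, which use the same substrate, thus moved in opposite directions.

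Of 45 measured genes of nucleotide synthesis and the pentose phosphate pathway, 17 rose, 0 fell and 28 did not pass (37.8% and 0%), with 1 lower at an unadjusted p under 0.05 in limma, at a median log2 change of 1.14 (1.76 without and 0.77 with spike-in). UMPS, which finishes the making of uridine monophosphate, read 6564, 6143 and 6819 in morulae against 207, 142 and 215 in oocytes (log2 change 5.02, SE 0.33, adjusted p = 2.26e-05), and its second probe set, at -0.30, did not pass. DTYMK, which phosphorylates thymidylate, read 1853, 1276 and 1654 in morulae against 32, 34.6 and 19.6 in oocytes (log2 change 5.17, SE 0.51, adjusted p = 0.000139). UCK2, a salvage kinase of uridine and cytidine, read 3415, 3067 and 5464 in morulae against 39.1, 111 and 423 in oocytes (log2 change 4.73, SE 0.67, adjusted p = 0.000928). The oocyte arrays were even for UMPS and DTYMK, whereas UCK2 was more than 4-fold higher on oocyte 3 than on oocyte 1. Rises for nucleotide synthesis numbered 10 to 11 without morula 1 or 2 or oocyte 1 or 2. Falls for nucleotide synthesis numbered 1 after quantile normalization or median centring.

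Among the genes of amino acid, one-carbon and polyamine metabolism, 51 were measured, and of these 13 rose and 6 fell (25.5% and 11.8%). The median log2 change was 0.51, or 0.61 without and 0.26 with spike-in. MTHFD1L, which makes formate in mitochondria, read 4103, 3594 and 3525 in morulae against 61.7, 73.3 and 32.6 in oocytes (log2 change 5.75, SE 0.40, adjusted p = 2.63e-05). CKB, brain-type creatine kinase, read 6697, 3202 and 1875 in morulae against 29.3, 57.5 and 82.3 in oocytes (log2 change 5.64, SE 0.60, adjusted p = 0.000195). GNMT, which consumes the methyl donor S-adenosylmethionine on glycine, read 6206, 5122 and 3090 in morulae against 150, 172 and 196 in oocytes (log2 change 4.63, SE 0.42, adjusted p = 8.6e-05), and its second probe set, at 3.07, did not pass. GLS2, a glutaminase, was among the falls: it read 42, 45.9 and 12.8 in morulae against 748, 1177 and 850 in oocytes (log2 change -4.30, SE 0.54, adjusted p = 0.000481). Within each stage the arrays lay within 4-fold of each other for MTHFD1L, CKB, GNMT and GLS2. Rises for amino acids and one-carbon units numbered 8 without morula 2. Falls for amino acids and one-carbon units numbered 3 without oocyte 1. Falls for amino acids and one-carbon units numbered 10 after median centring.

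The 62 measured genes of fatty acid oxidation, peroxisomes and phospholipids held 18 that rose and 5 that fell (29% and 8.06%), and the median log2 change was 0.36 (0.38 without and 0.42 with spike-in). Acyltransferases of lipid synthesis moved both ways. AGPAT5, which makes phosphatidic acid, read 8440, 8041 and 6870 in morulae against 649, 257 and 27 in oocytes (log2 change 5.29, SE 0.84, adjusted p = 0.00178), and all 4 of its other probe sets passed, at 4.30 to 5.55. DGAT2, which makes triglyceride, read 1297, 1064 and 444 in morulae against 10.9, 31.4 and 10.4 in oocytes (log2 change 4.75, SE 0.58, adjusted p = 0.000421). SMPD1, acid sphingomyelinase, read 4403, 2916 and 3618 in morulae against 111, 84.3 and 126 in oocytes (log2 change 4.89, SE 0.44, adjusted p = 8.6e-05). AGPAT1, which catalyses the same step as AGPAT5, read 34.5, 40.6 and 56.1 in morulae against 108, 324 and 156 in oocytes (log2 change -1.71, SE 0.43, adjusted p = 0.0192). Its call was lost in the fit of the 6 arrays alone (adjusted p = 0.058), the fit without morula 1 (adjusted p = 0.0714), the fit without morula 2 (adjusted p = 0.0649) and the fit without oocyte 2 (adjusted p = 0.0635). PEX2, a peroxisome assembly factor, read 320, 298 and 82.9 in morulae against 2150, 3382 and 1659 in oocytes (log2 change -3.40, SE 0.64, adjusted p = 0.00459). Morula arrays lay within 4-fold of each other for all of these genes, while oocyte arrays spread by more for AGPAT5 (oocyte 3 lowest). Falls for fatty acids and phospholipids numbered 1 to 2 without morula 1, 2 or 3 or oocyte 1 or 2.

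Redox genes moved in both directions by large amounts. Of 54 measured redox and detoxification genes, 15 rose, 7 fell and 32 did not pass (27.8% and 13%). At the median, log2 change was 0.16, with 0.22 on arrays without and -0.06 on arrays with spike-in. BLVRA, biliverdin reductase, read 1907, 1505 and 2049 in morulae against 57.4, 39.3 and 33.4 in oocytes (log2 change 4.96, SE 0.42, adjusted p = 6.15e-05). GSTK1, a glutathione transferase of mitochondria and peroxisomes, read 2114, 3550 and 3478 in morulae against 151, 46.3 and 33 in oocytes (log2 change 5.22, SE 0.72, adjusted p = 0.000787), and 2 further probe sets, at 0.47 and 0.13, did not pass. TXN2, mitochondrial thioredoxin, read 4387, 4171 and 3357 in morulae against 98.4, 58.9 and 646 in oocytes (log2 change 4.47, SE 0.69, adjusted p = 0.00155). Oocyte replicates spread over more than 4-fold for GSTK1 (oocyte 1 highest) and TXN2 (oocyte 3 highest), and morula replicates for none of these genes. Against these, GSTM3, a mu-class glutathione transferase, read 58.6, 50.1 and 19.8 in morulae against 880, 4479 and 3205 in oocytes (log2 change -5.39, SE 0.59, adjusted p = 0.000223). MGST2, a microsomal one, read 55.9, 26.3 and 19.4 in morulae against 1014, 1761 and 617 in oocytes (log2 change -4.47, SE 0.57, adjusted p = 0.000501). NQO1, a quinone reductase induced by NRF2, read 128, 94.3 and 76.4 in morulae against 1240, 1614 and 1007 in oocytes (log2 change -3.49, SE 0.40, adjusted p = 0.000287). SESN1, a p53-induced sestrin, read 1, 4.96 and 12.2 in morulae against 792, 470 and 197 in oocytes (log2 change -4.34, SE 0.59, adjusted p = 0.000728), with other probe sets at -1.09 and -1.58 that did not pass. Morula arrays spread over more than 4-fold for SESN1 (morula 1 lowest), and oocyte arrays for GSTM3 (oocyte 1 lowest) and SESN1 (oocyte 3 lowest). Glutathione transferases were therefore found on both sides.

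**Figure D4:**
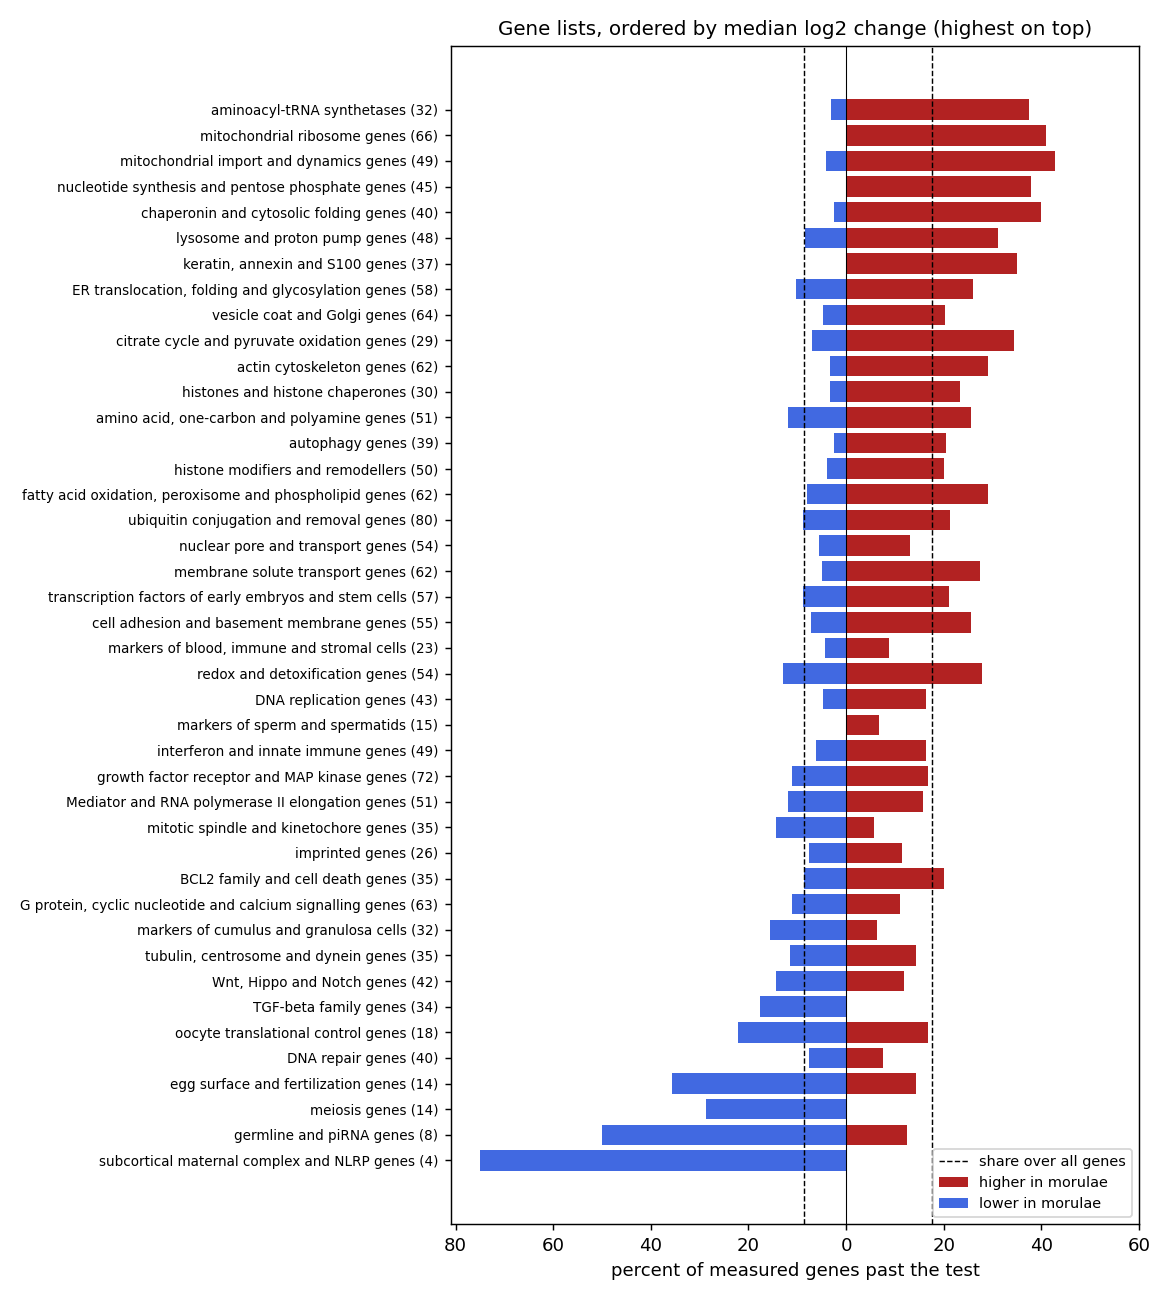
Bars give the percent of each list's measured genes that were higher (right) or lower (left) in morulae past the test, with the number measured in brackets and dashed lines at 17.7% and 8.63%, the shares over all genes. Lists of translation, mitochondria, folding and nucleotide synthesis lie at the top, where up to 42.9% rose, and egg and germline lists lie at the bottom.

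Genes that shape the cell rose more often than all genes did. Among the actin cytoskeleton genes, 62 were measured, and of these 18 rose and 2 fell (29% and 3.23%), with a median log2 change of 0.54 (0.93 without and 0.44 with spike-in). TPM4, a tropomyosin that stabilizes filaments, read 11315, 10812 and 8793 in morulae against 649, 418 and 704 in oocytes (log2 change 4.11, SE 0.35, adjusted p = 6.15e-05). TMSB10, which binds actin monomers, read 12025, 12335 and 10865 in morulae against 301, 463 and 2649 in oocytes (log2 change 3.99, SE 0.68, adjusted p = 0.0027). CAPZB, which caps filament ends, read 1542, 5017 and 2074 in morulae against 95.6, 226 and 355 in oocytes (log2 change 3.56, SE 0.54, adjusted p = 0.00141). DSTN, which severs filaments, read 4352, 3152 and 2248 in morulae against 10783, 9895 and 8104 in oocytes (log2 change -1.60, SE 0.31, adjusted p = 0.0052), whereas its second probe set, at 0.88, did not pass. Oocyte replicates spread over more than 4-fold for TMSB10 (oocyte 3 highest), and morula replicates for none of these genes. The 37 measured keratin, annexin and S100 genes held 13 that rose and 0 that fell (35.1% and 0%), with 2 lower at an unadjusted p under 0.05 in limma. A median log2 change of 0.85 was found, 0.68 without and 0.38 with spike-in. S100A14, a calcium-binding protein of epithelia, read 9271, 6307 and 3366 in morulae against 91.3, 69.7 and 215 in oocytes (log2 change 5.50, SE 0.51, adjusted p = 9.67e-05). ANXA8L1, an annexin, read 5308, 5188 and 677 in morulae against 70.3, 55.2 and 204 in oocytes (log2 change 4.60, SE 0.84, adjusted p = 0.00387). Oocyte arrays lay within 4-fold of each other for all of these genes, while morula arrays spread by more for ANXA8L1 (morula 3 lowest). Rises for actin numbered 11 without morula 1 or 2. Falls for actin numbered 1 without oocyte 1 or 2. Falls for keratins, annexins and S100 proteins numbered 1 without morula 3.

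Of 55 measured genes of cell adhesion and basement membrane, 14 rose, 4 fell and 37 did not pass (25.5% and 7.27%), at a median log2 change of 0.21 (0.39 without and 0.13 with spike-in). Besides the claudins already named, CDH3, the placental cadherin, read 818, 740 and 1112 in morulae against 3737, 5455 and 4022 in oocytes (log2 change -2.29, SE 0.35, adjusted p = 0.00148). CDH2, the neural cadherin, read 27.6, 15.9 and 15 in morulae against 51.3, 73.7 and 173 in oocytes (log2 change -1.58, SE 0.46, adjusted p = 0.0389), and this call was lost in the fit with pseudocount 1 (adjusted p = 0.112), the fit of the 6 arrays alone (adjusted p = 0.0607), the fit with replicate number as a block (adjusted p = 0.086), the fit of the arrays without spike-in (adjusted p = 0.12), the fit without the arrays numbered 3 (adjusted p = 0.167), the fit without morula 1 (adjusted p = 0.0644), the fit without morula 2 (adjusted p = 0.112), the fit without morula 3 (adjusted p = 0.0903), the fit without oocyte 2 (adjusted p = 0.073) and the fit without oocyte 3 (adjusted p = 0.0957). Of the connexins, GJB5 rose by 6.49 (adjusted p = 5.94e-05) while GJC1 fell by 5.79 (adjusted p = 5.29e-05). Single claudins, cadherins and connexins were thus lower in morulae while their list as a whole had more rises. Among the membrane solute transport genes, 62 were measured, and of these 17 rose and 3 fell (27.4% and 4.84%). The median log2 change was 0.30, or 0.43 without and 0.10 with spike-in. SLC7A5, a carrier of large neutral amino acids, read 9677, 8105 and 7023 in morulae against 709, 215 and 155 in oocytes (log2 change 4.74, SE 0.52, adjusted p = 0.000223). SLC2A8, a glucose transporter known from mouse blastocysts, read 4176, 4694 and 2488 in morulae against 252, 97.7 and 47.4 in oocytes (log2 change 4.88, SE 0.60, adjusted p = 0.000437). SLC5A1, the sodium-coupled glucose transporter, read 358, 156 and 23.8 in morulae against 6365, 4838 and 4737 in oocytes (log2 change -5.27, SE 0.89, adjusted p = 0.0025), while its second probe set, at -0.80, did not pass. The sodium pump subunits split as well, with ATP1B3 up by 4.16 (adjusted p = 0.000427; a second probe set, at 0.38, did not pass) and ATP1B1 at 2389, 1021 and 1186 in morulae against 9493, 6754 and 4181 in oocytes (log2 change -2.16, SE 0.41, adjusted p = 0.0049). A spread of more than 4-fold was seen among morulae for SLC5A1 (morula 3 lowest) and among oocytes for SLC7A5 (oocyte 1 highest) and SLC2A8 (oocyte 1 highest). Rises for adhesion numbered 9 without morula 1. Falls for solute transport numbered 5 without oocyte 3. Falls for solute transport numbered 5 after quantile normalization and 6 after median centring.

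The 34 measured TGF-beta family genes held 0 that rose and 6 that fell (0% and 17.6%), with 0 higher at an unadjusted p under 0.05 in limma, and the median log2 change was -0.21 (-0.37 without and -0.30 with spike-in). The 6 falls included the growth factors GDF9 and BMP15, which the oocyte secretes to its cumulus, and ID3, the target described above. BMPR1A, a receptor of bone morphogenetic proteins, read 137, 102 and 227 in morulae against 542, 1078 and 1290 in oocytes (log2 change -2.50, SE 0.55, adjusted p = 0.0107), and its second probe set, at -2.14, did not pass. A second BMP15 probe set, at -0.79, did not pass. The call for BMP15 was lost in the fit of the 6 arrays alone (adjusted p = 0.0963), the fit of the arrays without spike-in (adjusted p = 0.093), the fit without morula 1 (adjusted p = 0.0895), the fit without morula 2 (adjusted p = 0.0691) and the fit without morula 3 (adjusted p = 0.0537). That for BMPR1A was lost in the fit of the arrays without spike-in (adjusted p = 0.0694). Of 42 measured genes of the Wnt, Hippo and Notch pathways, 5 rose, 6 fell and 31 did not pass (11.9% and 14.3%). At the median, log2 change was -0.18, with -0.18 on arrays without and -0.16 on arrays with spike-in. JAG1, a ligand of Notch, read 743, 602 and 153 in morulae against 3438, 3832 and 5237 in oocytes (log2 change -3.26, SE 0.54, adjusted p = 0.00216), and its second probe set fell by 2.38. PSEN2, a catalytic subunit of the protease that releases Notch, read 3831, 4782 and 536 in morulae against 124, 159 and 172 in oocytes (log2 change 3.70, SE 0.79, adjusted p = 0.00868). TEAD4, the DNA-binding partner of YAP in trophectoderm, was among the rises (log2 change 5.16, adjusted p = 0.000235). Oocyte arrays lay within 4-fold of each other for all of these genes, while morula arrays spread by more for JAG1 (morula 3 lowest) and PSEN2 (morula 3 lowest). Falls for TGF-beta numbered 3 without morula 2. Rises for Wnt, Hippo and Notch numbered 3 without morula 1, 2 or 3 or oocyte 1. Rises for Wnt, Hippo and Notch numbered 3 after quantile normalization.

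Among the growth factor receptor and MAP kinase genes, 72 were measured, and of these 12 rose and 8 fell (16.7% and 11.1%), with a median log2 change of 0.06 (-0.04 without and 0.15 with spike-in, and -0.12 after quantile normalization). MAP2K1, the kinase MEK1 that activates ERK, read 1406, 939 and 332 in morulae against 6064, 5339 and 3980 in oocytes (log2 change -2.70, SE 0.49, adjusted p = 0.00391). MOS, the oocyte kinase that activates MEK, fell with it (log2 change -6.25, adjusted p = 0.000161). DUSP1, a phosphatase of MAP kinases, read 5463, 4631 and 4910 in morulae against 387, 489 and 344 in oocytes (log2 change 3.58, SE 0.37, adjusted p = 0.000163). MAPK14, the stress kinase p38 alpha, read 1452, 1214 and 1520 in morulae against 43.9, 69.8 and 178 in oocytes (log2 change 3.82, SE 0.53, adjusted p = 0.000846), whereas its other probe sets, at -1.68 and 0.88, did not pass. FLT1, a receptor of vascular endothelial growth factor, read 159, 59.9 and 21.5 in morulae against 2707, 1272 and 323 in oocytes (log2 change -3.74, SE 0.79, adjusted p = 0.00843), with other probe sets at -0.24 and -0.61 that did not pass. PDGFRA, a receptor known from primitive endoderm in mice, read 1499, 1444 and 996 in morulae against 149, 32.6 and 43.3 in oocytes (log2 change 4.07, SE 0.78, adjusted p = 0.005), and of its other probe sets the one at 1.25 passed and the one at -0.14 did not. A spread of more than 4-fold was seen among morulae for MAP2K1 (morula 3 lowest) and FLT1 (morula 3 lowest) and among oocytes for MAPK14 (oocyte 3 highest), FLT1 (oocyte 3 lowest) and PDGFRA (oocyte 1 highest). Falls for growth factor receptors and MAP kinases numbered 4 to 5 without morula 1, 2 or 3 or oocyte 1 or 2. Falls for growth factor receptors and MAP kinases numbered 13 after quantile normalization.

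The 63 measured genes of G protein, cyclic nucleotide and calcium signalling held 7 that rose and 7 that fell (11.1% and 11.1%). A median log2 change of -0.08 was found, -0.22 without and 0.01 with spike-in. RGS proteins, which speed the shut-off of G proteins, moved both ways. RGS10 read 7.09, 3.52 and 4.1 in morulae against 389, 273 and 1672 in oocytes (log2 change -4.80, SE 0.59, adjusted p = 0.000424). RGS19 read 233, 265 and 373 in morulae against 17.4, 26.7 and 4.52 in oocytes (log2 change 3.29, SE 0.40, adjusted p = 0.000396), and its second probe set, at -0.01, did not pass. GNAI1, an inhibitory G alpha subunit, read 749, 496 and 346 in morulae against 8781, 7043 and 5676 in oocytes (log2 change -3.76, SE 0.44, adjusted p = 0.000333). GNG11, a G gamma subunit, read 530, 826 and 2407 in morulae against 21.3, 8.55 and 22.4 in oocytes (log2 change 4.98, SE 0.53, adjusted p = 0.000199). PRKCZ, the atypical protein kinase C of the apical polarity complex, read 1204, 1598 and 1314 in morulae against 38.1, 37.5 and 39 in oocytes (log2 change 4.67, SE 0.56, adjusted p = 0.000379). Morula arrays spread over more than 4-fold for GNG11 (morula 3 highest), and oocyte arrays for RGS10 (oocyte 3 highest) and RGS19 (oocyte 3 lowest).

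Cell death genes rose and fell in shares near those of all genes. Of 35 measured BCL2 family and cell death genes, 7 rose, 3 fell and 25 did not pass (20% and 8.57%), at a median log2 change of -0.07 (0.12 without and -0.03 with spike-in). BAD, a BH3-only protein that opposes survival members, read 4142, 4593 and 2684 in morulae against 41.1, 80.8 and 56.6 in oocytes (log2 change 5.66, SE 0.62, adjusted p = 0.000225). DIABLO, which mitochondria release to free caspases, read 1078, 1217 and 683 in morulae against 38.1, 20.3 and 6.52 in oocytes (log2 change 4.79, SE 0.48, adjusted p = 0.000138). ENDOG, a mitochondrial nuclease, read 607, 636 and 605 in morulae against 12.6, 11.8 and 8.32 in oocytes (log2 change 4.56, SE 0.59, adjusted p = 0.000575). BAK1, which permeabilizes the outer mitochondrial membrane, also rose (log2 change 6.38, adjusted p = 0.000386). The products of BAK1, DIABLO and ENDOG reside in mitochondria, and BAD acts there. Oocyte replicates spread over more than 4-fold for DIABLO (oocyte 3 lowest), and morula replicates for none of these genes. TP53INP1, a p53-induced protein, read 1467, 1604 and 437 in morulae against 4071, 4578 and 5054 in oocytes (log2 change -2.15, SE 0.48, adjusted p = 0.0115), and its second probe set fell by 3.65. Falls for cell death numbered 7 without oocyte 3. Falls for cell death numbered 5 after median centring. Falls for cell death numbered 6 with replicate number as a block.

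Among the transcription factors of early embryos and stem cells, 57 were measured, and of these 12 rose and 5 fell (21.1% and 8.77%), at a median log2 change of 0.22 (0.23 without and 0.20 with spike-in). RXRB, a partner of nuclear receptors, read 1680, 1590 and 1053 in morulae against 26, 30.9 and 32.3 in oocytes (log2 change 4.97, SE 0.54, adjusted p = 0.000217). KLF13, a Krueppel-like factor, read 1914, 2492 and 3257 in morulae against 133, 176 and 36.2 in oocytes (log2 change 4.46, SE 0.68, adjusted p = 0.00147). NR3C1, the glucocorticoid receptor, read 15.2, 11.6 and 7.06 in morulae against 420, 108 and 173 in oocytes (log2 change -3.0, SE 0.52, adjusted p = 0.003), and its second probe set, at -0.21, did not pass. NFYC, a subunit of the factor that binds CCAAT boxes, read 208, 249 and 221 in morulae against 1097, 2050 and 1204 in oocytes (log2 change -2.55, SE 0.38, adjusted p = 0.00124), and its other probe set (-0.30) did not pass. Morula arrays lay within 4-fold of each other for all of these genes, while oocyte arrays spread by more for KLF13 (oocyte 3 lowest). The 26 measured imprinted genes held 3 that rose and 2 that fell (11.5% and 7.69%), and the median log2 change was -0.06 (-0.26 without and 0.29 with spike-in). MEST, a paternally expressed gene in mice, read 427, 298 and 88.2 in morulae against 3284, 2927 and 5424 in oocytes (log2 change -3.94, SE 0.53, adjusted p = 0.000694), and of its other probe sets the one at -5.47 passed while those at -0.14 and 0.82 did not. PHLDA2, a maternally expressed gene that limits placental growth in mice, read 727, 753 and 712 in morulae against 76.5, 193 and 39.1 in oocytes (log2 change 2.87, SE 0.51, adjusted p = 0.00351). NDN, paternally expressed in mice, read 2690, 2491 and 867 in morulae against 131, 152 and 116 in oocytes (log2 change 3.61, SE 0.48, adjusted p = 0.000639). A spread of more than 4-fold was seen among morulae for MEST (morula 3 lowest) and among oocytes for PHLDA2 (oocyte 2 highest). Total signal does not show which parental copy was read. Falls for transcription factors numbered 3 without morula 2 or oocyte 1.

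Genes of interferon and innate immunity rose and fell in shares near those of all genes. Of 49 measured interferon and innate immune genes, 8 rose, 3 fell and 38 did not pass (16.3% and 6.12%), at a median log2 change of 0.06 (-0.14 without and -0.13 with spike-in, and -0.13 after quantile normalization). MX1, an antiviral GTPase induced by interferon, read 6.29, 6.03 and 3.19 in morulae against 276, 214 and 327 in oocytes (log2 change -3.75, SE 0.27, adjusted p = 2.73e-05). ISG15, a ubiquitin-like modifier induced by interferon, read 17.1, 20 and 24.5 in morulae against 156, 219 and 1517 in oocytes (log2 change -3.44, SE 0.67, adjusted p = 0.00546). NFKBIA, the inhibitor of NF-kappa-B, read 37.4, 66.3 and 230 in morulae against 900, 2681 and 570 in oocytes (log2 change -3.46, SE 0.72, adjusted p = 0.00792). Morula arrays spread over more than 4-fold for NFKBIA (morula 3 highest), and oocyte arrays for ISG15 (oocyte 3 highest) and NFKBIA (oocyte 2 highest). IRF3, a factor that switches interferon genes on, read 575, 590 and 1665 in morulae against 5.9, 33.7 and 81.2 in oocytes (log2 change 4.16, SE 0.82, adjusted p = 0.00575). IL18, a cytokine that caspase-1 matures, read 357, 572 and 378 in morulae against 51.3, 19.3 and 37.5 in oocytes (log2 change 3.14, SE 0.38, adjusted p = 0.000421). Its protease gene CASP1 was described above among the deepest falls. IFI35 and GBP4, also induced by interferon, rose, so that genes of that kind were found on both sides. IFI35 read 606, 534 and 346 in morulae against 33.5, 17.2 and 31.6 in oocytes (log2 change 3.54, SE 0.39, adjusted p = 0.000235). GBP4, a guanylate-binding protein, read 142, 138 and 203 in morulae against 13.6, 4.61 and 12.9 in oocytes (log2 change 2.75, SE 0.54, adjusted p = 0.00568). Oocyte replicates spread over more than 4-fold for IRF3 (oocyte 1 lowest), and morula replicates for none of these genes. Rises for interferon and innate immunity numbered 5 without morula 1 or 2 or oocyte 1. Falls for interferon and innate immunity numbered 8 without oocyte 3. Falls for interferon and innate immunity numbered 6 after quantile normalization.

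Markers of other cells did not move together. Among the cumulus and granulosa markers, 32 were measured, and of these 2 rose and 5 fell (6.25% and 15.6%), with a median log2 change of -0.10 (-0.11 without and 0.11 with spike-in). Their summed signal ran from 17047 to 19454 in morulae against 9684 to 12820 in oocytes. STAR, the steroidogenic carrier of cholesterol, read 78, 95 and 907 in morulae against 2537, 2958 and 2640 in oocytes (log2 change -3.68, SE 0.78, adjusted p = 0.00845). TIMP1, an inhibitor of metalloproteases, read 1761, 1875 and 786 in morulae against 180, 261 and 275 in oocytes (log2 change 2.47, SE 0.45, adjusted p = 0.00376), and its second probe set, at 1.09, did not pass. FSHR, the defining receptor of granulosa cells, was between 1 and 6.97 in morulae against 3.14 to 9.56 in oocytes, near background at both stages. Of the cumulus matrix genes VCAN and TNFAIP6 fell. VCAN, the proteoglycan versican, read 81, 79.7 and 72.7 in morulae against 965, 672 and 399 in oocytes (log2 change -2.80, SE 0.47, adjusted p = 0.00241), and of its other probe sets the one at -5.17 passed and the one at -0.29 did not. TNFAIP6, which links hyaluronan to proteins, read 16.6, 30.6 and 11.3 in morulae against 562, 70.2 and 1072 in oocytes (log2 change -3.45, SE 0.90, adjusted p = 0.0237), and its second probe set, at 0.22, did not pass. The TNFAIP6 call was lost in the fit of the 6 arrays alone (adjusted p = 0.054), the fit without the arrays numbered 3 (adjusted p = 0.124), the fit without morula 1 (adjusted p = 0.0681), the fit without morula 2 (adjusted p = 0.0521), the fit without morula 3 (adjusted p = 0.0631), the fit without oocyte 1 (adjusted p = 0.0813) and the fit without oocyte 3 (adjusted p = 0.0644). PTX3, a pentraxin of the same matrix, did not pass, and it read 9.39, 16.2 and 15.2 in morulae against 428, 416 and 20.6 in oocytes (log2 change -2.70, SE 0.87, adjusted p = 0.057). FST, follistatin, did not pass either, with 24.9, 20.8 and 20.7 in morulae against 104, 124 and 28.2 in oocytes (log2 change -1.25, SE 0.40, adjusted p = 0.0536). For both, oocyte 3 was close to the morulae while oocytes 1 and 2 were higher. HAS2, the other matrix gene measured, is described with the genes whose probe sets disagree. The 15 measured sperm and spermatid markers held 1 that rose and 0 that fell (6.67% and 0%), with 2 lower at an unadjusted p under 0.05 in limma, at a median log2 change of 0.08 (0.00 without and 0.07 with spike-in). Their sum was 1120 to 1564 in morulae against 479 to 595 in oocytes, and the protamine PRM2 read at most 4.23 in morulae and at most 1.25 in oocytes. Of 23 measured blood, immune and stromal markers, 2 rose, 1 fell and 20 did not pass (8.7% and 4.35%), at a median log2 change of 0.19 (0.14 without and 0.29 with spike-in). Their sum was 5399 to 6779 in morulae against 1056 to 1812 in oocytes. ALB, albumin, read 2581, 2303 and 3357 in morulae against 281, 133 and 108 in oocytes (log2 change 3.95, SE 0.40, adjusted p = 0.000156), with 8 other probe sets of which 1 passed. PTPRC, the common leukocyte antigen, read 17.8, 15.3 and 26.2 in morulae against 17, 13.3 and 37 in oocytes. The part of such cells in the results was not tested. Falls for cumulus and granulosa numbered 2 to 3 without morula 1 or 2 or oocyte 1 or 2. Falls for cumulus and granulosa numbered 8 after quantile normalization or median centring. Rises for sperm numbered 2 without oocyte 3. Falls for sperm numbered 1 without oocyte 3. Falls for sperm numbered 1 after quantile normalization or median centring. Falls for sperm numbered 1 with replicate number as a block. Falls for blood, immune and stromal cells numbered 0 without oocyte 1.

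Oocytes use their own versions of several widely expressed proteins. In 26 listed pairs 1 gene was taken as egg-type and the other as its relative, and 7 pairs had both genes measured. Whether each gene so taken is particular to the oocyte was not tested, and the list took in HSPA2, a testis-type gene. The egg-type gene fell in 4 pairs (KPNA7, UCHL1, CNOT6L and BMP15), and in none of these did the relative pass the test. Over all genes 8.63% fell, and the call for BMP15 was lost in several alternative fits. UCHL1, a ubiquitin hydrolase, read 477, 281 and 16.1 in morulae against 8082, 8620 and 8678 in oocytes (log2 change -5.66, SE 1.15, adjusted p = 0.0068). Its relative UCHL3 read 925, 1640 and 401 in morulae against 1157, 1475 and 1932 in oocytes (log2 change -0.80, SE 0.51, adjusted p = 0.332). CNOT6L, a deadenylase, read 324, 169 and 17.8 in morulae against 919, 1250 and 778 in oocytes (log2 change -2.93, SE 0.73, adjusted p = 0.0194), and a second probe set, at -5.55, passed as well. The CNOT6L call was lost in the fit of the 6 arrays alone (adjusted p = 0.0712), the fit of the arrays without spike-in (adjusted p = 0.0709), the fit without oocyte 1 (adjusted p = 0.0526) and the fit without oocyte 2 (adjusted p = 0.069). CNOT6 read 734, 863 and 188 in morulae against 1047, 1732 and 2480 in oocytes (log2 change -1.70, SE 0.59, adjusted p = 0.0743). In the pair ZFP36L2 and ZFP36L1 the direction was the reverse, with ZFP36L2 higher by 2.83 and ZFP36L1 at 2228, 2010 and 1575 in morulae against 4552, 6357 and 10162 in oocytes (log2 change -1.79, SE 0.34, adjusted p = 0.00452). Of its other probe sets the one at -2.87 passed and the one at 0.32 did not. The ZFP36L1 call was lost in the fit of the arrays without spike-in (adjusted p = 0.0836). HSPA8, the constitutive HSP70, read 12965, 11652 and 9560 in morulae against 1948, 1706 and 3268 in oocytes (log2 change 2.34, SE 0.29, adjusted p = 0.000423), while its testis-type relative HSPA2 read 3212, 2309 and 683 in morulae against 1363, 1057 and 652 in oocytes (log2 change 0.80, SE 0.64, adjusted p = 0.441). At the probe set used for each gene, in no pair did the egg-type gene pass as a fall while its relative passed as a rise. LDHC, a lactate dehydrogenase, changed by -1.57 (SE 0.50, adjusted p = 0.0538) and its relative LDHA by -0.37 (SE 0.85, adjusted p = 0.82). Another LDHA probe set rose by 2.48 (SE 0.50, adjusted p = 0.00645), and one at 1.45 did not pass. The difference of the changes within a pair was not tested.

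Many genes were read by more than 1 probe set, and often only 1 of these passed. Of 2913 such genes, 1041 had at least 1 probe set past the test, and in 867 of them exactly 1 passed. That count does not show whether the other probe sets moved the same way. Of 174 genes with 2 or more passing probe sets, 157 had them in 1 direction and 17 in opposite directions. HAS2, the synthase of hyaluronan that cumulus cells secrete, had one probe set at 8972, 8622 and 9257 in morulae against 1776, 1571 and 1310 in oocytes (log2 change 2.53). Another read 8.48, 11.19 and 10.32 in morulae against 2205, 3044 and 1017 in oocytes (log2 change -6.20). A further HAS2 probe set read 395, 294 and 240 in morulae against 6.07, 8.13 and 5.3 in oocytes (log2 change 3.83). The same gene symbol therefore stood for rises and a fall, each without overlap between the stages. EED, a Polycomb subunit with 23 probe sets under its symbol, had passing changes from -3.69 to 4.31. GNAS, the stimulatory G alpha locus with several promoters, had passing changes of -2.15, 1.77 and 3.90. CCL25, a chemokine, had -4.18 at one probe set and 2.15 at another. A value for 1 probe set is therefore not taken as a value for the whole gene. Whether every probe set belongs to the gene of its symbol was not tested.

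The other stages, most with 1 array, were set beside these values as a description. Of the 30 largest rises, 4 lay nearer the morula mean than the oocyte mean on the 2-cell array and 4 on the 4-cell array. On the 8-cell array 4 did (COTL1, EIF3A, SNHG12 and URGCP), on the 16-cell array 24 and at the blastocyst mean all 30. The 6 that did not at 16 cells were AGPAT4, ALPI, CLDN4, GJB5, KRT18 and NFE2, which include a keratin, a claudin and a connexin. Of the 30 largest falls, 0 lay nearer the morula mean on the 2-cell array and 1 on the 4-cell array. On the 8-cell array 3 did (RB1, SLC39A12 and TDRD7), on the 16-cell array 8 and at the blastocyst mean 30. ID3 still read 9903 on the 8-cell array and 9399 on the 16-cell array, against 104, 148 and 64.3 on the morula arrays. The median position between the oocyte mean (0) and the morula mean (1) on the 16-cell array was 0.81 for the rises and 0.35 for the falls, with no replicate at that stage.

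**Figure D5:**
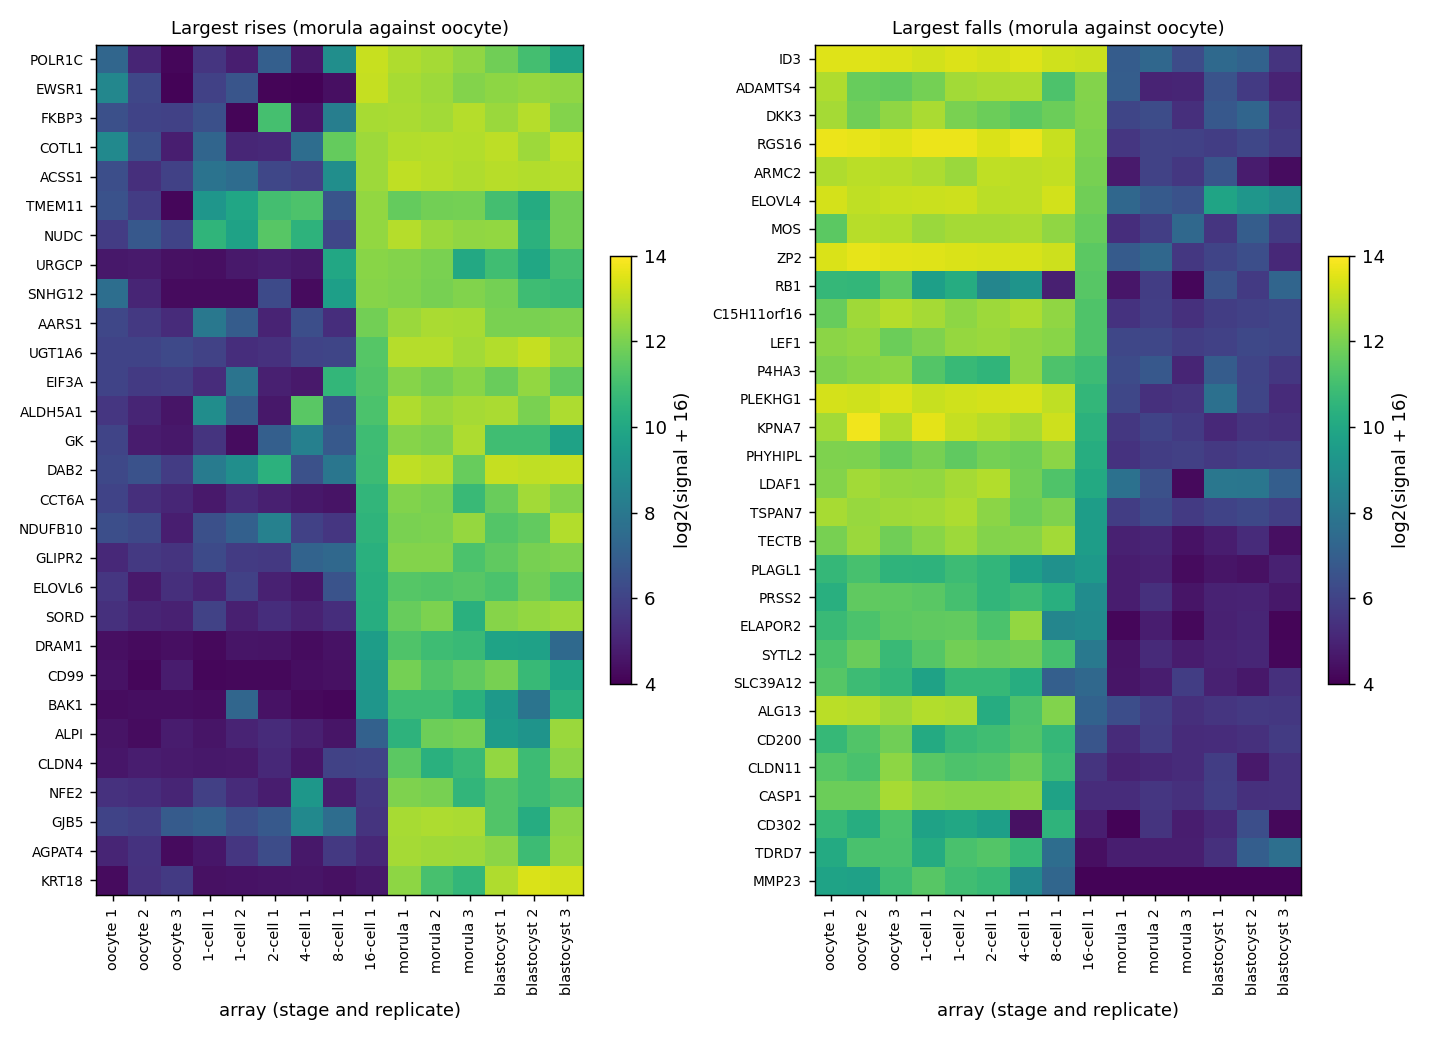
Colour gives log2(signal + 16) on each of the 15 arrays from oocyte to blastocyst for the 30 largest rises (left, 1 left out) and falls (right), ordered by the 16-cell array, with 1 array at the 2-, 4-, 8- and 16-cell stages. Most rises are bright from the 16-cell array on, whereas most falls are still bright there and dark from the morula on.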

How the data were processed

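Per the labels, biotin-labelled RNA amplified in 3 rounds was run on Affymetrix bovine arrays. The deposited table holds 1 linear intensity per probe set and array, already summarised by the authors; for software, scaling and detection calls, the method is not given in these labels or the table. A series-wide control class, the Lys spike-in, was used to split the arrays.

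Of 24128 probe sets, 112 controls were left out. Intensities were taken as log2(value + 16) with no filter and fitted over all 15 arrays with a mean per stage in limma 3.58.1 (R 4.3.3, lmFit and eBayes with trend), two-sided, with Benjamini-Hochberg adjustment over 24016 probe sets. Platform annotation gave 1 gene symbol to 13292 probe sets, of which 13263 were updated through RefSeq, several genes to 86 and none to 10638. Each gene is represented by the probe set with the highest mean over the 15 arrays. A fold change on log2(value + 16) understates changes of dim genes, and levels of different probe sets are not comparable. The number of arrays limits the precision, and p-values rest on how far these arrays, labelled biological replicates, scatter.

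The members and gene lists were chosen with earlier results of these data known. Genes were named by rule: the 30 largest rises and 30 largest falls without overlap, up to 4 rises and 4 falls of each list, the 20 highest genes of each stage, all listed pairs, the 10 smallest adjusted p-values in each direction, up to 10 genes with opposite probe sets and the markers. Of the 362 genes so named, signals are given mainly for those past the test in every alternative that made calls. Titles number the replicates: deviations from the stage mean correlated, over probe sets, at 0.142, 0.107 and 0.182 for arrays with the same number, so the number was tried as a block, although morula 1 and oocyte 2 reached 0.155. The fit was tested on simulated data. A planned description of promoter motifs was not run, since no promoter sequences were used here. The result for 1 gene is not reported here.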

Additional observations from a re-analysis of the deposited data

Results flagged for a closer look

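Bacterial control transcripts outside the comparison gave signal on some arrays. The 3′ probe set of the LysX spike-in read 12318 on morula 3, against 8.8 and 53.8 on morulae 1 and 2. On the oocyte arrays 1, 2 and 3 it read 16.3, 2814.6 and 13077.2. The control is added to a sample and is no bovine transcript, so its signal marks how an array was prepared. Of the 324 called genes among the 362 named, 308 changed by at least 2-fold both in arrays with and in arrays without it, on the same arrays that made the calls.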

How the results depend on the processing

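The counts of probe sets kept within 1.5 times under another scaling, filter, pseudocount or variance model, and the counts past the test ran from 4344 to 4780 there. Leaving out 1 array gave 3260 to 4964 past the test, 2081 to 3129 higher and 1179 to 2123 lower. With the replicate number as a block 4879 passed, and the block ended 8 of the 324 named calls. The fit of the 6 morula and oocyte arrays alone gave 3589 past the test and ended 46 of those calls, leaving out both arrays numbered 3 ended 33, and leaving out 1 array ended 24 to 50. The arrays without spike-in signal, with 1 oocyte array that is assumed to vary like the other stages of that class, gave 6206 past the test, 2708 of them lower in place of 1720, and ended 56. The arrays with it, with 1 residual degree of freedom, gave 0 past the test, 0 higher and 0 lower in limma, while 3795 probe sets had an unadjusted p under 0.05, where 1201 would be expected without any change. Of 84 list counts, quantile normalization moved 15 and median centring 14 by more than 1.5 times. Averaging all probe sets of a gene moved no list median by 0.5 or more. With 3 arrays a group, 1 or 2 of them apart from the rest and no detection calls, small counts in short lists and genes near background are the least certain.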

Other observations

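Gene families that share the start of a symbol were looked at after the values were seen, 50 of them with 15 or more measured genes. The subunits of RNA polymerases held 26 measured genes, of which 11 rose and 0 fell, read beside 17.7% higher and 8.63% lower over all genes, and a median log2 change of 1.44. From 8 to 14 rose across the alternatives that made calls, and 1 was lower in the arrays without spike-in signal and without oocyte 3. POLR3F, of RNA polymerase III, read 926, 1075 and 1419 in morulae against 19.7, 24.9 and 18.6 in oocytes (log2 change 4.95, SE 0.42, adjusted p = 5.94e-05), and its other probe sets did not pass. POLR2M, a subunit of a form of RNA polymerase II, read 1519, 1545 and 942 in morulae against 48.5, 46.1 and 3.73 in oocytes (log2 change 4.94, SE 0.61, adjusted p = 0.000431). POLR2G, of the polymerase II stalk, read 5641, 4738 and 2834 in morulae against 177, 212 and 1237 in oocytes (log2 change 3.48, SE 0.65, adjusted p = 0.00423). Polymerases I, II and III were all represented among the rises.

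Sorting nexins, some of which coat endosomal tubules, had 15 measured genes, of which 5 rose and 1 fell, beside the same shares over all genes. SNX1 read 6884, 6691 and 6561 in morulae against 296, 219 and 17 in oocytes (log2 change 5.65, SE 0.71, adjusted p = 0.000493). Its partner SNX2 read 5469, 5550 and 5776 in morulae against 51.7, 70.5 and 178 in oocytes (log2 change 5.75, SE 0.44, adjusted p = 3.56e-05). Both were even across the morula arrays. The only fall, SNX10, was lost without morula 2, oocyte 1 or oocyte 2.

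Tetraspanins moved in both directions, with 2 rises and 5 falls among 18 measured genes, beside 17.7% higher and 8.63% lower over all genes. TSPAN5 read 250, 140 and 27.9 in morulae against 4049, 4192 and 6176 in oocytes (log2 change -5.28, SE 0.68, adjusted p = 0.000525). TSPAN2 read 1367, 1245 and 3746 in morulae against 64.2, 40.9 and 22 in oocytes (log2 change 5.07, SE 0.51, adjusted p = 0.000155). TSPAN6 read 5109, 4961 and 5479 in morulae against 446, 120 and 348 in oocytes (log2 change 4.20, SE 0.48, adjusted p = 0.000274), while a second probe set, at 0.91, did not pass.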
